A study of Mus musculus with 9 samples.

Results

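Of the 19147 genes that the arrays measured with a probe set of a single symbol, 8 are Sox transcription factors known from neural progenitors and neurons: Sox1, Sox2, Sox3, Sox4, Sox5, Sox9, Sox11 and Sox12. They were chosen by name, though with earlier results of these data known, and are read by 14 of the 38385 probe sets. Total RNA of the mouse cerebellum at postnatal day 5 was hybridised to 1 custom Affymetrix array per sample, 9 in all, from mice of strain C57BL/6. The 3 groups of 3 arrays were wild type, SmoA2 mutant and Smo/Smo mutant, and the samples carry separate animal codes. Per the design text, SmoA1 and SmoA2 are transgenes that carry constitutively active Smoothened (Smo), the receptor-coupled membrane protein of the Sonic hedgehog (Shh) pathway. Both are driven by a fragment of the Neurod2 (ND2) promoter that is active in granule neuron precursors. The third group is labelled Smo/Smo and no more, and by elimination it should be the SmoA1 line. The arrays read whole cerebellum, so fewer cells of a type and less RNA per cell cannot be told apart.

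Sox proteins bind DNA through an HMG box and are sorted into subgroups by the likeness of that domain. The SoxB1 factors (Sox1, Sox2, Sox3) hold neural progenitors in an undifferentiated state, often together with POU factors, and the SoxC factors (Sox4, Sox11, Sox12) act later, in precursors leaving the cycle and in newborn neurons. Sox5 belongs to the SoxD subgroup, which lacks a known activation domain and tunes the action of other Sox proteins, and Sox9, a SoxE factor, drives the switch to glial fates. In the postnatal cerebellum, Sox2 and Sox9 are known from Bergmann glia and astrocytes, and Sox2 also marks rare progenitors in Shh-driven medulloblastoma.

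Precision is limited by the number of arrays. Median intensities ran from 91.0 to 95.1 over the arrays. By the signal of Xist and Y-linked genes, the sex was male in 1 of 3 wild type mice and in 2 of 3 mice of each mutant group. In the 4 female mice, 5 probe sets of 4 Y-linked genes gave log2 values of 2.23 to 5.57, taken here as the range of background. Xist in the male mice gave 3.68 to 4.24, within that range. Ttr, the transthyretin gene that marks choroid plexus, stood at 4.95 log2 in wild type replicate 3 and at 11.3 to 12.1 in the other 8 arrays, so that array was also left out in turn. The Smo/Smo mice carry codes of a different prefix from wild type and SmoA2, and an effect of their source cannot be told apart from that of the genotype. The Smo probe set, which may or may not match the transgene, gave log2 values of 8.62 to 8.79 in wild type, 8.38 to 8.83 in SmoA2 and 8.66 to 8.69 in Smo/Smo, which overlap. Gli1, a transcription factor that the pathway induces, stood at 9.64 to 9.78 in wild type, 10.1 to 10.3 in SmoA2 and 9.76 to 9.85 in Smo/Smo, and Neurod2 at 12.5 to 12.6, 12.3 to 12.4 and 12.4 to 12.5.

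The first question was whether either mutant line differed from wild type in these Sox genes. None of the 8 members passed the test in SmoA2 against wild type or in Smo/Smo against wild type (limma, Benjamini-Hochberg adjusted p under 0.05 over all genes), and 1 member, Sox3, passed in SmoA2 against Smo/Smo. Over all genes tested, 2.69% were called in the first comparison (0.961% higher, 1.73% lower), 0.371% in the second (0.214% higher, 0.157% lower) and 2.56% in the third (1.02% higher, 1.54% lower). At an unadjusted p under 0.05, 1 member (Sox3) was counted in the first comparison, 0 in the second and 1 (Sox3) in the third. The same cut counted 2832, 1679 and 2741 of all 19147 genes. The median log2 fold change of the members was 0.01 in SmoA2 and -0.03 in Smo/Smo against wild type, beside 0.01 and 0.01 over all genes. The arrays of the groups did not overlap for 3 members in each comparison, where all genes gave 19.1%, 15.9% and 18.2%.

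**Figure D1:**
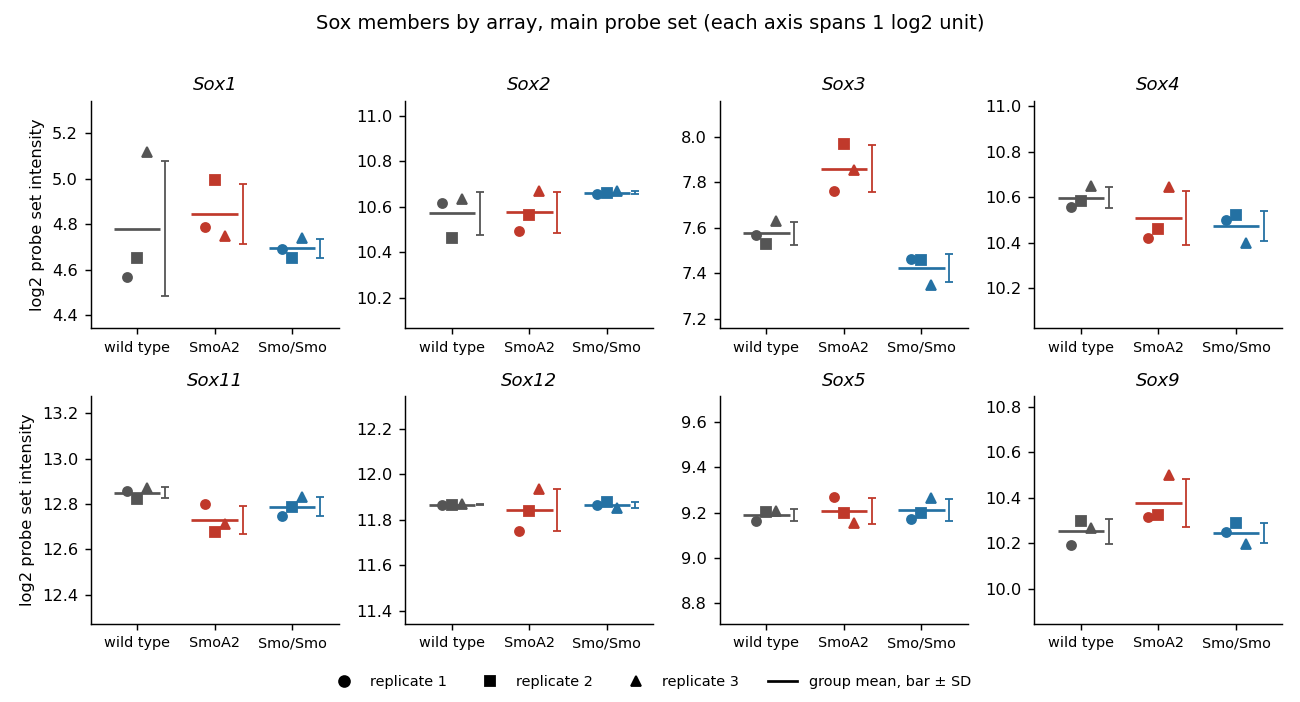
Log2 probe set intensity (y axis, each spanning 1 log2 unit) of the 8 Sox members on their main probe sets, in the 3 arrays of wild type, SmoA2 and Smo/Smo. Horizontal lines are group means and bars the SD (n = 3). Sox3 is the member whose 3 groups are apart, from 7.35 to 7.46 in Smo/Smo to 7.76 to 7.97 in SmoA2, while Sox5 covers 0.12 log2 units over all 9 arrays.

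Among the SoxB1 factors, Sox2, the stem cell factor that was read by 1 probe set, was nearly level over the arrays. Its log2 values were 10.62, 10.46 and 10.64 in wild type, 10.49, 10.56 and 10.67 in SmoA2, and 10.66, 10.66 and 10.67 in Smo/Smo. The SmoA2 arrays lay in the range of wild type or just above it, and the Smo/Smo arrays lay a little above all 3 wild type arrays. SmoA2 gave 1.00-fold of wild type (0.003 ± 0.07 on the log2 scale, with the standard error and 3 arrays per group as throughout, adjusted p = 0.993), with a 95% interval of 0.90- to 1.12-fold. Smo/Smo gave 1.07-fold (0.09 ± 0.07, adjusted p = 0.782), with an interval of 0.956- to 1.19-fold. Changes of Sox2 larger than these bounds are outside the intervals, and smaller ones could not be told from none.

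Sox3, an X-linked SoxB1 factor of neural progenitors, was the member with the largest differences. On its main probe set the log2 values were 7.57, 7.53 and 7.63 in wild type, 7.76, 7.97 and 7.85 in SmoA2, and 7.46, 7.46 and 7.35 in Smo/Smo. All SmoA2 arrays lay above all wild type arrays, and all Smo/Smo arrays lay below them. Sox3 was 1.35-fold higher in SmoA2 than in Smo/Smo (log2 difference 0.44 ± 0.07, adjusted p = 0.0133), with a 95% interval of 1.21- to 1.51-fold. Against wild type, neither side passed the test: SmoA2 gave 1.22-fold (0.28 ± 0.07, adjusted p = 0.0729) and Smo/Smo 0.90-fold (-0.15 ± 0.07, adjusted p = 0.583). The moderated F test over the 3 groups called Sox3 (adjusted p = 0.0240), where it called 2.89% of all genes, and it called none of the other 7 members (adjusted p 0.497 to 0.972).

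The other Sox3 probe set did not show this order. Its log2 values were 6.84, 6.75 and 6.70 in wild type, 6.54, 6.76 and 6.82 in SmoA2, and 6.57, 6.91 and 6.83 in Smo/Smo, and the groups overlapped throughout. SmoA2 differed from Smo/Smo by -0.06 ± 0.11 on the log2 scale (adjusted p = 0.884 with every probe set tested), with an interval of 0.813- to 1.13-fold that does not reach the 1.35-fold of the main probe set. The gap between the probe sets within an array, tested after the values were seen, was wider in SmoA2 than in Smo/Smo by 0.50 ± 0.12 (adjusted p = 0.144 over the 3958 genes with several probe sets). The main probe set is annotated with a GenBank clone and the other with the RefSeq mRNA, and both lie above the background range. With the mean of both, the Sox3 difference between the mutant lines was 0.19 (adjusted p = 0.284), and the call also ended without Smo/Smo replicate 2 (0.0542), without Smo/Smo replicate 3 (0.0623), without wild type replicate 3 and SmoA2 replicate 3 together (0.0584), with only the 2 groups compared in the fit (0.0524) and at a threshold of 0.01. With sex as a covariate, which bears on an X-linked gene, the difference was 0.44 (adjusted p = 0.0288).

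**Figure D2:**
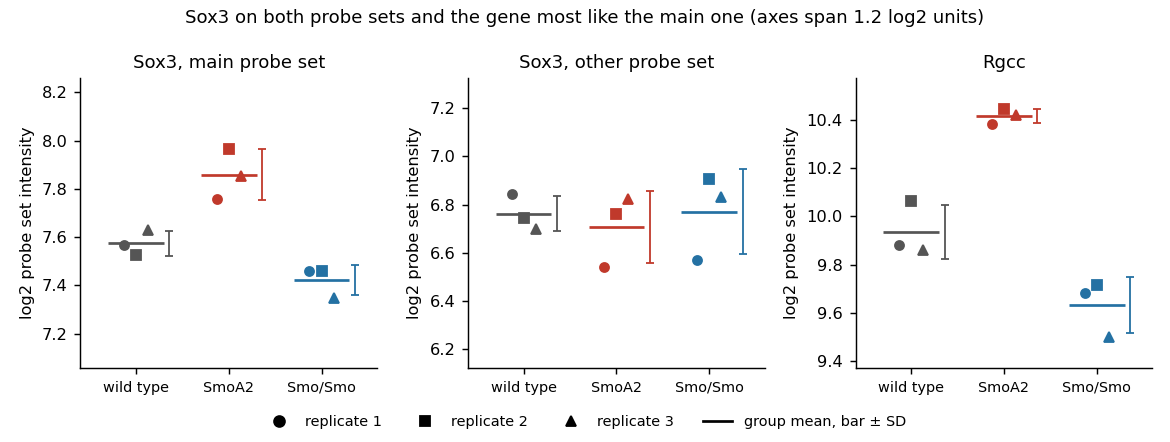
Log2 probe set intensity (y axes, each spanning 1.2 log2 units) by group for the main Sox3 probe set, the other Sox3 probe set and Rgcc, the gene whose values over the 9 arrays were most like those of the main probe set. Points are arrays, lines group means and bars the SD (n = 3). The main probe set puts SmoA2 highest (mean 7.86) and Smo/Smo lowest (7.42), whereas the other has means of 6.76, 6.71 and 6.77 in wild type, SmoA2 and Smo/Smo.

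Sox1, the third SoxB1 factor, did not stand above the top of the background range. Its 1 probe set gave 4.57, 4.65 and 5.12 log2 in wild type, 4.79, 4.996 and 4.75 in SmoA2, and 4.69, 4.65 and 4.74 in Smo/Smo. All 9 values fell inside the background range given above, though above its median of 3.08. The differences (0.06 and -0.09 against wild type, adjusted p = 0.874 and 0.916) therefore say nothing firm about the transcript, and no fold is given.

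The SoxC factors, which act as neurons leave the cycle, were likewise not called. Sox11 gave 12.86, 12.82 and 12.87 log2 in wild type, 12.80, 12.68 and 12.71 in SmoA2, and 12.75, 12.79 and 12.83 in Smo/Smo. The SmoA2 arrays lay below all wild type arrays by a small margin, and the Smo/Smo arrays overlapped with both groups. The log2 fold change was -0.12 ± 0.06 in SmoA2 (adjusted p = 0.371, 95% interval 0.843- to 1.00-fold) and -0.06 ± 0.06 in Smo/Smo (adjusted p = 0.832). The other Sox11 probe sets gave -0.03 and -0.12 in SmoA2 (adjusted p = 0.930 and 0.643 with every probe set tested), with overlapping arrays in both.

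Sox4, a close relative of Sox11 read by 1 probe set, gave 10.56, 10.58 and 10.65 log2 in wild type, 10.42, 10.46 and 10.64 in SmoA2, and 10.50, 10.52 and 10.40 in Smo/Smo. The Smo/Smo arrays lay below all 3 wild type arrays, and SmoA2 replicate 3 lay among the wild type arrays. Sox4 gave -0.09 ± 0.07 on the log2 scale in SmoA2 (adjusted p = 0.631, interval 0.84- to 1.05-fold) and -0.12 ± 0.07 in Smo/Smo (adjusted p = 0.706, interval 0.82- to 1.03-fold).

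Sox12, the SoxC factor with the weakest known activation domain, gave 11.86, 11.86 and 11.87 log2 in wild type, 11.75, 11.84 and 11.94 in SmoA2, and 11.86, 11.88 and 11.85 in Smo/Smo on its main probe set. The wild type and Smo/Smo arrays were almost level, and the SmoA2 arrays spread to both sides of them. The log2 fold change was -0.02 ± 0.06 in SmoA2 (adjusted p = 0.898) and -0.002 ± 0.06 in Smo/Smo (adjusted p = 0.996, interval 0.91- to 1.10-fold). The other Sox12 probe set, annotated with the RefSeq mRNA, gave 8.21, 8.13 and 8.23 in wild type, 8.03, 8.03 and 7.98 in SmoA2, and 7.95, 7.93 and 7.89 in Smo/Smo. Here all arrays of both mutant groups lay below all wild type arrays. The log2 fold change of -0.18 ± 0.06 in SmoA2 and of -0.27 ± 0.06 in Smo/Smo did not pass the test (adjusted p = 0.244 and 0.158 with every probe set tested), and the gap between the probe sets, tested after the values were seen, was not called in either (adjusted p = 0.772 and 0.373).

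Sox5, the SoxD factor, was the steadiest member. Its main probe set gave 9.16, 9.20 and 9.21 log2 in wild type, 9.27, 9.20 and 9.15 in SmoA2, and 9.17, 9.20 and 9.27 in Smo/Smo, and the groups overlapped fully. Its differences were 0.02 ± 0.06 on the log2 scale in both SmoA2 (adjusted p = 0.928, interval 0.926- to 1.11-fold) and Smo/Smo (adjusted p = 0.953, interval 0.929- to 1.11-fold). Its other probe set gave 0.05 and 0.02 (adjusted p = 0.867 and 0.972 with every probe set tested).

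Sox9, the SoxE factor of glial fate, gave 10.19, 10.30 and 10.27 log2 in wild type, 10.31, 10.32 and 10.50 in SmoA2, and 10.25, 10.29 and 10.20 in Smo/Smo. The SmoA2 arrays lay just above the wild type arrays, with SmoA2 replicate 3 standing highest, and the Smo/Smo arrays overlapped with wild type. The log2 fold change was 0.13 ± 0.07 in SmoA2 (adjusted p = 0.435, interval 0.982- to 1.21-fold) and -0.008 ± 0.07 in Smo/Smo (adjusted p = 0.988, interval 0.89- to 1.11-fold). On the other Sox9 probe set SmoA2 replicate 3 was instead the lowest of the 9 arrays (8.79, against 9.27 and 9.24 in the other SmoA2 arrays), and the log2 fold change in SmoA2 was 0.10 (adjusted p = 0.816 with every probe set tested).

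**Figure D3:**
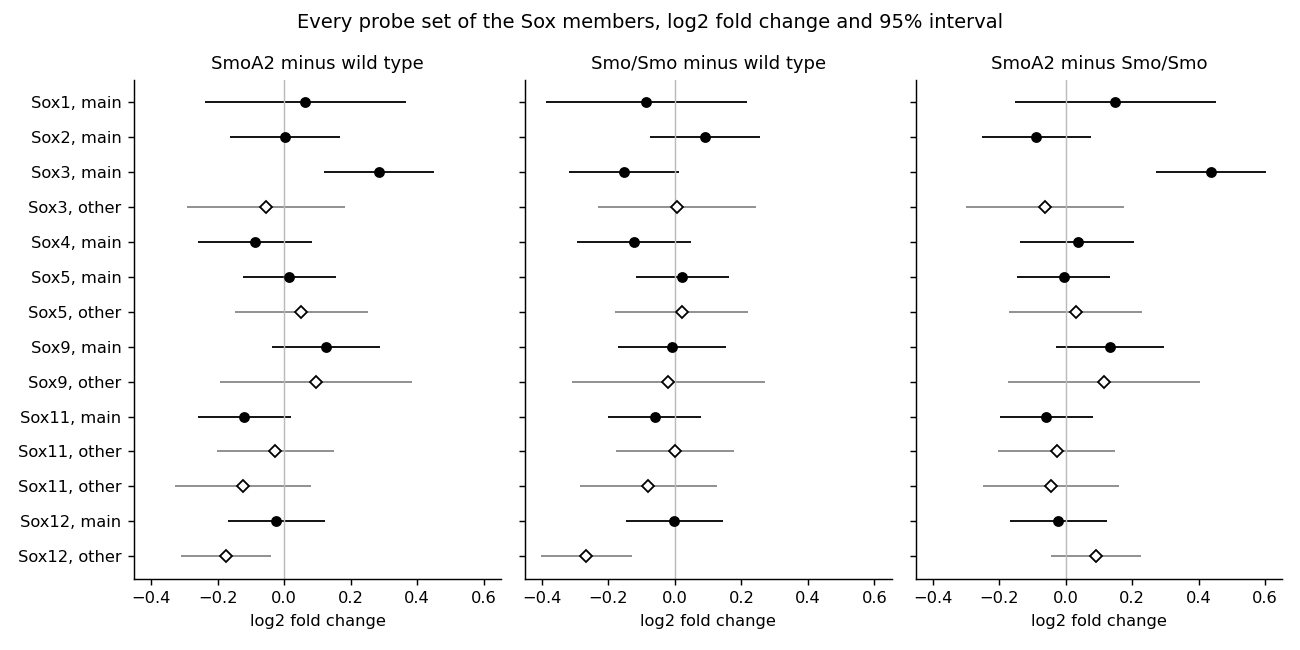
Log2 fold change (x axis) with its 95% interval for all 14 probe sets of the Sox members in the 3 comparisons, from the fit in which every probe set was tested. Filled circles are main probe sets and open diamonds the others. The main Sox3 probe set alone passes the test, in SmoA2 minus Smo/Smo (0.44, adjusted p = 0.0205), and the other Sox3 probe set lies at -0.06 there.

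With every probe set tested, 0 of the 14 passed in SmoA2 against wild type, 0 in Smo/Smo against wild type and 1 (Sox3) in SmoA2 against Smo/Smo, where 1.62%, 0.31% and 1.75% of all probe sets passed. On the main probe sets, leaving Sox1 aside, the widest bounds of the 95% intervals over the other members were 0.84-fold (Sox4) and 1.36-fold (Sox3) in SmoA2 against wild type, and 0.807-fold (Sox3) and 1.19-fold (Sox2) in Smo/Smo against wild type. Other probe sets went past these bounds: that of Sox12 ran from 0.806- to 0.973-fold in SmoA2 and from 0.757- to 0.914-fold in Smo/Smo, and that of Sox9 reached 1.21-fold in Smo/Smo. In SmoA2 the intervals of another Sox11 probe set and of the other Sox3 probe set reached down to 0.797- and 0.818-fold. Without wild type replicate 3, the array with low Ttr, 0 members were called in either mutant against wild type, and Sox3 was called between the mutant lines (adjusted p = 0.0230).

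Of 11 other Sox genes listed, 9 were measured, and Sox18, which is known from blood and lymph vessel endothelium, was called. Its 1 probe set gave 8.52, 8.68 and 8.45 log2 in wild type, 9.81, 9.78 and 9.82 in SmoA2, and 8.71, 8.83 and 8.72 in Smo/Smo. The SmoA2 arrays stood far above both other groups, and the Smo/Smo arrays lay just above wild type. Sox18 rose 2.39-fold in SmoA2 (1.26 ± 0.07 on the log2 scale, adjusted p = 3.849e-05, interval 2.14- to 2.67-fold) and was 2.08-fold higher in SmoA2 than in Smo/Smo (adjusted p = 0.000182). In Smo/Smo against wild type it gave 1.15-fold (0.20 ± 0.07, adjusted p = 0.440). Both calls held whichever of the 9 arrays was dropped, with log2 fold changes of 1.21 to 1.32 in SmoA2 against wild type.

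Among 7 markers of endothelium measured, 0 rose and 2 fell in SmoA2: Kdr and Tek, receptors of endothelial cells, at -0.30 ± 0.06 and -0.29 ± 0.05 on the log2 scale (adjusted p = 0.0401 and 0.0267). Dropping 1 array ended the call of Kdr in 9 of 9 fits and that of Tek in 7 (highest adjusted p 0.125 and 0.126). The summed intensity of the list was 5891 to 6070 in wild type, 5227 to 5477 in SmoA2 and 6309 to 6631 in Smo/Smo. The other vessel Sox genes measured, Sox7 and Sox17, gave -0.03 and -0.21 in SmoA2 (adjusted p = 0.898 and 0.380). Sox17 lay within the background range in all SmoA2 and Smo/Smo arrays (at most 5.55) and just above it in wild type (5.60 to 5.87).

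**Figure D4:**
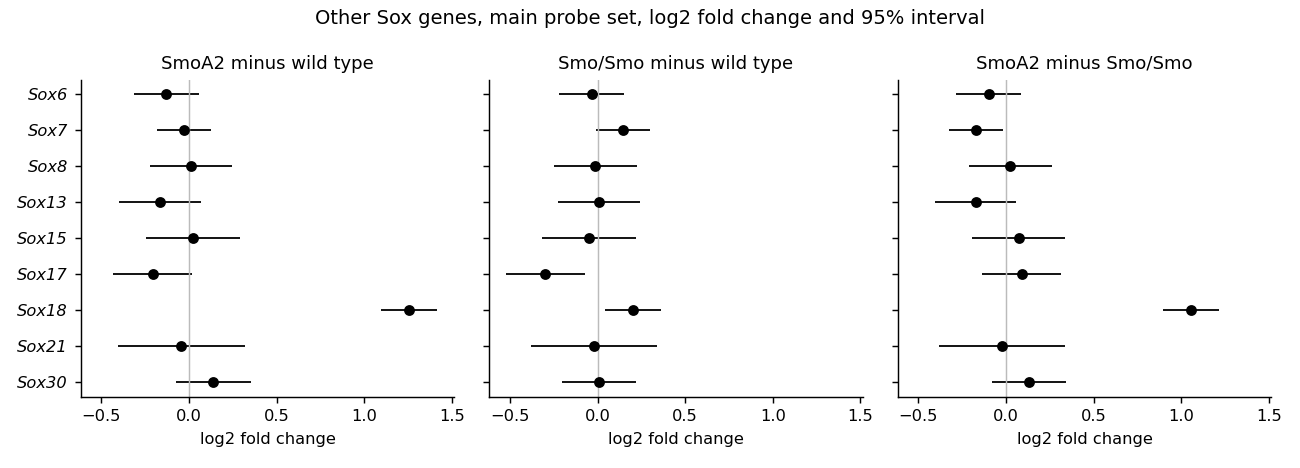
Log2 fold change (x axis) with its 95% interval for the main probe sets of the 9 measured Sox genes outside the 8 members, in the 3 comparisons. Sox18 stands at 1.26 in SmoA2 minus wild type and at 1.05 in SmoA2 minus Smo/Smo, and the other 8 genes lie between -0.21 and 0.14 in the first and between -0.17 and 0.13 in the second.

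The remaining 8 Sox genes, which include Sox6 and Sox13 (SoxD), Sox8 (SoxE), Sox15, Sox30 and Sox21, a SoxB2 factor that opposes SoxB1 in progenitors, were not called in any comparison. On their main probe sets the log2 fold changes ran from -0.21 to 0.14 in SmoA2 and from -0.30 to 0.14 in Smo/Smo against wild type (lowest adjusted p = 0.380 and 0.416). Other Sox6 probe sets went past these ranges, to -0.30 in SmoA2 and -0.36 in Smo/Smo, and were not called (adjusted p = 0.353 and 0.401 with every probe set tested). Sox30 lay within background in all arrays. Sox10 and Sox14 were not analysed here.

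Most genes that act with the SoxB1 factors were not called, though the share called in SmoA2 was above that of all genes. Of 15 partners and progenitor genes measured, 2 rose, 1 fell and 12 were not called in SmoA2. That is 20% called, beside 2.69% of all genes. In Smo/Smo 0 were called (7 of 15 above 0), beside 0.371% of all genes. Hes1, a Notch effector of progenitors, rose by 0.71 ± 0.06 on the log2 scale (adjusted p = 0.000506), and Pou3f4, a POU factor of the kind that pairs with SoxB1, rose by 0.55 ± 0.08 (adjusted p = 0.00999). Id4, an inhibitor of differentiation, fell by 0.28 ± 0.06 (adjusted p = 0.0342), which no longer passed in any of the 9 fits that dropped 1 array (highest adjusted p 0.129). With the mean of all its probe sets, Id4 gave -0.04 (adjusted p = 0.846). The median of the list was -0.05 in SmoA2. Fabp7 and Nes, progenitor genes that SoxB1 factors are known to act on, gave -0.04 and 0.12 (adjusted p = 0.807 and 0.538), and were named after their values were seen.

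Genes of Bergmann glia and astrocytes, the cells in which Sox9 is known, gave a lower median than Sox9 itself. Of 14 measured, 2 fell, 0 rose and 12 were not called in SmoA2, with a median log2 fold change of -0.15 against 0.13 for Sox9, and this difference was not tested. Gdf10, which encodes a BMP-like factor made by Bergmann glia, fell by 0.59 ± 0.06 (adjusted p = 0.00156), and the connexin gene Gjb6 fell by 0.95 ± 0.13 (adjusted p = 0.00701). Hopx was called only between the mutant lines, at -0.40 ± 0.07 in SmoA2 minus Smo/Smo (adjusted p = 0.0229), and 5 of the 9 fits that dropped 1 array lost it (highest adjusted p 0.0922). In Smo/Smo against wild type 0 of the 14 were called, with a median of 0.01. The summed intensity of the list was 49203 to 52103 in wild type, 44502 to 46062 in SmoA2 and 50457 to 51106 in Smo/Smo.

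SoxC targets and genes of new neurons were not called against wild type. Of 12 measured, 0 were called in SmoA2 and 0 in Smo/Smo, with a median of -0.04 in each. Between the mutant lines Cntn2, a cell adhesion molecule of migrating granule neurons, was 0.60 ± 0.11 lower on the log2 scale in SmoA2 (log2 difference -0.60, adjusted p = 0.0294), which 8 of the 9 fits that dropped 1 array did not call (highest adjusted p 0.0920). Dcx, a microtubule protein of young neurons that was named after its values were seen, gave -0.05 in both mutant groups (adjusted p = 0.744 and 0.848).

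**Figure D5:**
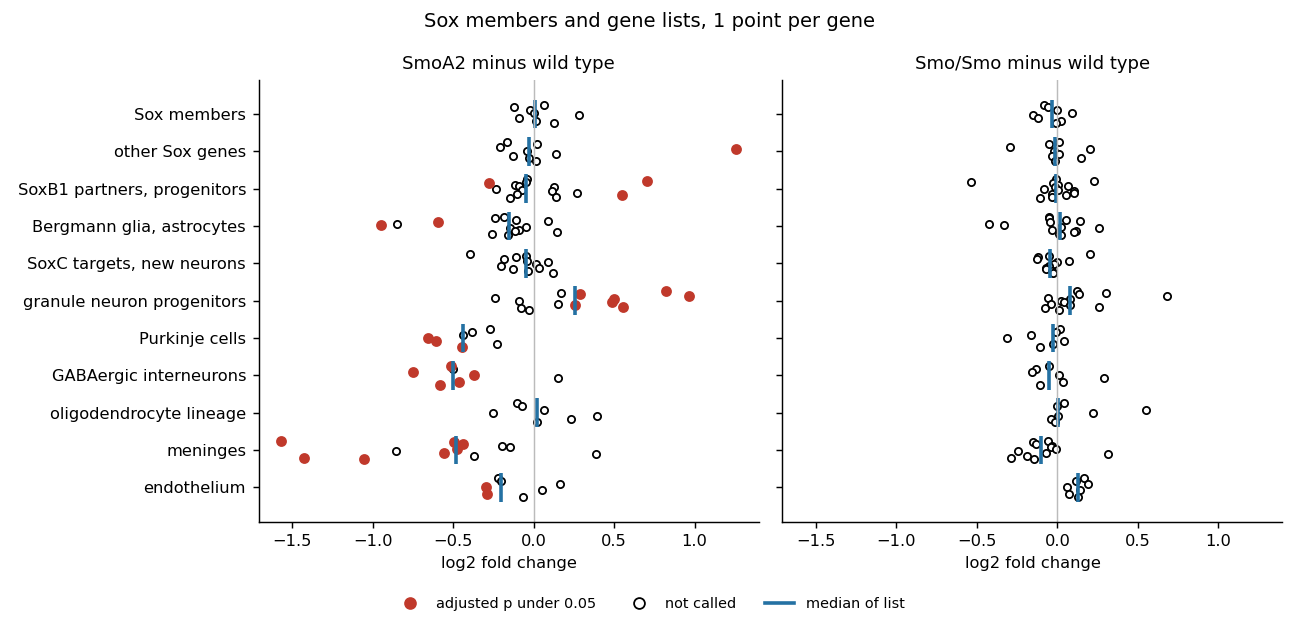
Log2 fold change (x axis) of each measured gene of the Sox members and of 10 gene lists, in SmoA2 minus wild type and Smo/Smo minus wild type; choroid plexus genes are left off because wild type replicate 3 was the lowest array for 10 of the 11. Red points passed the test (adjusted p under 0.05), open points did not, and blue lines are list medians. The members sit near 0 in both panels (medians 0.01 and -0.03), while granule neuron progenitor markers have a median of 0.26 and GABAergic interneuron markers one of -0.50 in SmoA2.

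Markers of the cell types in the tissue were present. Those of some types were called in SmoA2 against wild type, beside 2.69% of all genes. Among 13 markers of granule neuron progenitors, 7 rose, 0 fell and 6 were not called (median 0.26). Atoh1, the factor these cells need, rose by 0.82 ± 0.07 (adjusted p = 0.000703). Gli1 rose by 0.50, the Wnt antagonist Sfrp1 by 0.56 and cyclin D1 (Ccnd1) by 0.96. The call of Ccnd1 was lost without wild type replicate 2 (adjusted p = 0.0501). Of the 13, 9 lay above 0. Below 0 were Ccnd2 (-0.24, adjusted p = 0.079), Gli2 (-0.09), Top2a (-0.08) and Zic1 (-0.03), named after their values were seen. For Ccnd2 all SmoA2 arrays lay below all wild type arrays. Between the mutant lines, where the main Sox3 probe set was called and the other was not, 3 of the 13 progenitor markers were higher in SmoA2. The summed intensity of the 13 was 52126 to 55270 in SmoA2 and 49835 to 52071 in Smo/Smo. The part of these markers in the difference on the main Sox3 probe set was not tested. Of 7 Purkinje cell markers, 3 fell in SmoA2: Lhx5 (-0.66), Pcp2 (-0.61) and Rora (-0.45). Of 7 markers of GABAergic interneurons, 5 fell, among them Pax2 (-0.75), Tfap2b (-0.58), Gad1 (-0.51) and Slc32a1 (-0.46), the last not called in 6 of the 9 fits that dropped 1 array. The calls of Pcp2 and Rora were lost in 3 and 2 of those fits (adjusted p up to 0.0657 and 0.0564). Of 12 meningeal markers, 7 fell, 0 rose and 5 were not called. Those that fell include Slc22a6 (-1.42), Aldh1a2 (-1.57), Slc6a13 (-1.05) and Col1a2 (-0.44), the last lost in 5 of 9 fits. Lum, the 1 meningeal marker above 0, gave 0.385 (adjusted p = 0.220), with all SmoA2 arrays above all wild type arrays. Without wild type replicate 3, the array with low Ttr, the counts in SmoA2 became 5 of 13 progenitor markers higher, and 3 of 7 Purkinje cell, 3 of 7 interneuron, 3 of 12 meningeal and 0 of 7 endothelial markers lower. Calls over all 19147 genes in SmoA2 against wild type went from 515 to 323 without that array. They went to 253 and 234 without wild type replicates 1 and 2.

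Oligodendrocyte lineage markers were not called. Of the 7 measured, Olig1 and Mbp had the smallest p over the 3 comparisons: Olig1 gave 0.40 in SmoA2 against wild type (adjusted p = 0.0845), and Mbp -0.47 in SmoA2 minus Smo/Smo (adjusted p = 0.0895). Olig2 gave 0.23 in SmoA2 against wild type (adjusted p = 0.156), and was named after its values were seen.

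For choroid plexus markers, the size of the differences and the calls depended on wild type replicate 3. That array was the lowest of the 9 for 10 of the 11. All 11 lay above 0 in both mutant groups, with medians of 1.43 in SmoA2 and 1.73 in Smo/Smo, and 0 passed the test in either. The summed intensity was 2051 to 6609 in wild type, 8790 to 10392 in SmoA2 and 10553 to 12141 in Smo/Smo. Without wild type replicate 3, 6 of the 11 rose in SmoA2 (median 0.66) and 8 rose in Smo/Smo (median 0.99). That fit called 323 and 51 of all 19147 genes, and each of the 11 stayed above 0 in both mutant groups. Calml4 gave 0.74 in SmoA2 with all arrays (adjusted p = 0.268) and 0.35 without that array (adjusted p = 0.348), and Cldn2 gave 1.63 (adjusted p = 0.0538) and 1.11 (adjusted p = 0.0111). In Smo/Smo, Calml4 gave 1.37 with all arrays (adjusted p = 0.133) and 0.98 without that array (adjusted p = 0.0542). Cldn2 there gave 1.505 (adjusted p = 0.193) and 0.99 (adjusted p = 0.0467). In Smo/Smo against wild type, 0 genes of the other 6 marker lists passed the test, with or without that array. Whether cell numbers contributed to the values of the Sox genes or of the marker lists was not tested.

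The genes whose values over the 9 arrays were most like those of the main Sox3 probe set were Rgcc (Pearson r 0.94, Spearman rho 0.92), Vash2 (0.93 and 0.88) and Cc2d1b (0.92 and 0.91), among 11434 genes with a mean log2 of at least 6 and a full symbol (clone and model names such as Rik and Gm were left out). Rgcc, a regulator of the cell cycle, gave 9.88, 10.06 and 9.86 log2 in wild type, 10.38, 10.44 and 10.42 in SmoA2, and 9.68, 9.72 and 9.50 in Smo/Smo, in the same order of groups. These values are a description over arrays that fall into 3 groups, and the other Sox3 probe set did not share the pattern.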

How the data were processed

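Values were the authors' deposited probe set intensity from 1 custom Affymetrix array per sample, summarised by RMA per the submitters' processing notes, whose version, chip definition and genome build are not given in the sources used here. As the values are linear, their log2 was used. Platform annotation gave 1 symbol to 24478 of 38385 probe sets, several to 65 and none to 13842. Each gene was represented by its probe set of highest mean log2 (all 9 arrays), and further probe sets are given beside it.

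All 9 arrays were fitted in limma 3.58.1 (lmFit, eBayes) in R 4.3.3 with 3 group means as the only terms. P-values were adjusted over 19147 genes (Benjamini-Hochberg) and called under 0.05. Errors are standard errors of this model, and intervals are 95%. Replicates were numbered in accession order, carry separate animal codes, and nothing further is stated on their origin, so p-values measure the spread between these samples. No read depth exists for arrays.

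The members, 11 gene and marker lists (114 of 127 entries measured) and tests were chosen with earlier results of these data known. Lists are described by counts and medians. Genes named were the members, other Sox genes, up to 4 called genes of each list by smallest p (2 where none was called), and the 3 genes most like a called member. Alternatives were other normalizations, probe set choices, a low-value filter, variance models, array weights, 2-group fits, sex, a stricter threshold and left-out arrays; the test of the gap between probe sets was added after the values were seen. The pipeline was tested on simulated data. No protein sequences were used here. Plots used matplotlib 3.10.9 (Python 3.11.15).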

Additional observations from a re-analysis of the deposited data

Results flagged for a closer look

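The direct test of SmoA2 against Smo/Smo differed for 1 of the 8 Sox members and for other genes named above, where source and genotype of the Smo/Smo mice cannot be told apart. All values are log2 differences, SmoA2 minus Smo/Smo, called in limma at an adjusted p under 0.05. Sox3 gave 0.44 on its main probe set and -0.06 on the other. Sox18 gave 1.05. Among SoxB1 partners, Hes1 gave 0.48 and Pou3f4 0.50, the latter not called in 3 of the 9 fits that dropped 1 array. Among glial and new neuron genes, Gdf10 gave -0.55, Hopx -0.40 and Cntn2 -0.60. Granule neuron progenitor markers gave 0.70 (Atoh1) and 0.42 (Gli1, lost in 4 of 9 fits). Purkinje cell markers gave -0.65 (Pcp2, lost in 4 of 9 fits) and -0.34 (Rora, lost in 8). Interneuron markers gave -0.59 (Pax2), -0.47 (Tfap2b), -0.46 (Gad1) and -0.50 (Slc32a1), of which the last 3 were lost in 2, 3 and 3 of 9 fits. Meningeal markers gave -1.14 (Slc22a6), -1.51 (Aldh1a2) and -0.91 (Slc6a13), and endothelial markers -0.36 (Tek), -0.36 (Kdr) and -0.32 (Cldn5), lost in 2, 3 and 8 of 9 fits.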

How the results depend on the processing

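Leaving out single arrays left 0 members called in SmoA2 and in Smo/Smo against wild type, and 0 to 1 in SmoA2 against Smo/Smo. That count of 1 (Sox3) became 0 with the mean of all probe sets, with only the 2 groups compared, without both wild type replicate 3 and SmoA2 replicate 3, and at an adjusted p under 0.01. In SmoA2 against wild type the count of 0 became 1 (Sox3, adjusted p = 0.0308) when only genes of mean log2 at least 6 were tested, a setting that tests fewer genes. No other setting moved a count of members. Over all genes the calls ranged more widely: 187 (adjusted p under 0.01) to 776 (the filter on mean log2) around 515 in SmoA2 against wild type, 19 (adjusted p under 0.01) to 162 (array weights) around 71 in Smo/Smo against wild type, and 142 to 809 around 490 between the mutant lines. Sox1 has no value under that filter. Without wild type replicate 3, the count of choroid plexus markers called rose from 0 to 6 in SmoA2 and to 8 in Smo/Smo. No paired analysis was possible because the labels give animal codes and no replicate numbers shared between groups.

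Several members with differences near 0 changed sign, none of them called. In log2 units, Sox9 in Smo/Smo minus wild type became 0.002 after quantile normalization, 0.001 after centring on array medians and 0.022 with array weights, and Sox12 there became 0.006 after centring and 0.002 with array weights. In SmoA2 minus Smo/Smo, Sox5 became 0.001 after centring, 0.013 with the mean of probe sets, 0.031 with the most variable probe set, 0.009 with array weights and 0.022 without the 2 arrays left out together. Sox12 there became 0.035 and 0.091 with the mean and the most variable probe set, and Sox4 became -0.008 with array weights and -0.032 without the 2 arrays. Sox2 in SmoA2 minus wild type became -0.034 with array weights and -0.013 without the 2 arrays, and Sox1 in Smo/Smo minus wild type became 0.084 without them. With single arrays left out, ranges that crossed 0 in SmoA2 minus wild type were -0.042 to 0.234 (Sox1), -0.052 to 0.044 (Sox2), -0.015 to 0.044 (Sox5) and -0.071 to 0.022 (Sox12). In Smo/Smo minus wild type they were -0.192 to 0.084 (Sox1), -0.005 to 0.041 (Sox5), -0.038 to 0.016 (Sox9) and -0.008 to 0.004 (Sox12). In SmoA2 minus Smo/Smo they were -0.032 to 0.079 (Sox4), -0.037 to 0.022 (Sox5) and -0.069 to 0.024 (Sox12). The cause of these shifts was not tested.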

Other observations

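Sox2ot, a long noncoding RNA whose gene contains Sox2, was looked at after the values were seen. Its log2 values were 8.11, 8.22 and 8.15 in wild type, 8.01, 8.04 and 7.77 in SmoA2, and 8.21, 8.11 and 8.18 in Smo/Smo, with all SmoA2 arrays below both other groups. The log2 fold change of -0.22 ± 0.08 in SmoA2 did not pass the test (limma, adjusted p = 0.226), and Sox2 itself gave 0.003.

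RefSeq promoter windows of the GRCm38.p6 build, from 250 bases before to 50 after the start of a gene, were at hand for 6 of the 8 members and were searched on both strands for the Gli consensus GACCACCCA. It was in 0 of the 6 and in 0.253% of all 32851 windows, which says only that these letters are not in those windows.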
